A study of Brassica napus with 30 samples.

Results

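After 8 h of germination at 25 °C, seeds of the oilseed rape genotype JY1621 were compared with seeds of the genotype JY1605. The comparison holds 3 libraries of JY1621 and 3 of JY1605, 6 of the 30 libraries in the series. It covers the gene models that reached a CPM of 0.531 (CPM, a read count scaled to a fixed library total) in 3 or more of the 30 libraries, which were 57945 of the 100919 in the deposited table. JY1621 seeds were germinated for 8 h at 25 °C, and JY1605 seeds were treated in the same way and taken at the same time of day. The other groups, read here only for context, were dry seeds and seeds germinated for 36 h at 25 °C or for 8 h or 36 h at 8 °C. The labels give no allele, transgene or other agent for either genotype, and the series calls the libraries of a group biological replicates without saying whether they came from separate seed lots. Each RNA sample was made from 100 pooled seeds, so that fewer cells of a type and less RNA per cell cannot be told apart. Counts per library ran from 16604207 to 26387839 in JY1621 and from 18187151 to 22636937 in JY1605.

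Oilseed rape (Brassica napus) is an allotetraploid that carries an A subgenome, from the Brassica rapa lineage, and a C subgenome, from the Brassica oleracea lineage. Most genes therefore exist as homoeologous copies on an A and a C chromosome, and chromosomes such as A01 and C01, or A02 and C02, largely run in parallel. A dry seed holds messenger RNA stored during seed maturation. When the seed takes up water, stored transcripts are degraded while new transcription begins, and this turnover precedes the emergence of the root. The gene IDs carry a chromosome and an order along it, and none of them matched the 123214 genes of the reference table, so no names, functions or sequences could be attached and markers of seed tissue could not be checked. The differences are described here by chromosome, by neighbourhood, by level and by their course during germination, with 4 gene models given by ID.

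The genotypes differed at 24.5% of the tested gene models after 8 h at 25 °C. In JY1621, 7475 gene models (12.9% of those tested) were higher than in JY1605 and 6711 (11.6%) were lower, by edgeR's quasi-likelihood test at a Benjamini-Hochberg adjusted p under 0.05 over all tested models and a log2 fold change of at least 1. The lower calls were larger in the median but not at the extreme. Their median log2 fold change was -1.87, with quartiles of -3.12 and -1.31. That of the higher calls was 1.55, with quartiles of 1.19 and 2.75. Of the higher calls, 63.9% lay between 1 and 2 on the log2 scale, against 53.8% of the lower calls. At 6 or more in size lay 564 of the higher calls (7.55%) and 328 of the lower calls (4.89%). The 3 JY1621 libraries all lay above the 3 JY1605 libraries for 97.5% of the higher calls and all below them for 96.7% of the lower calls, which compares with 28.7% above and 29.3% below among all tested gene models. Among all tested gene models the median log2 fold change was -0.0069. With library size scaling alone the balance of directions turned, to 6832 higher and 7145 lower calls.

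The gene models called higher took 13.8%, 13.2% and 12.9% of all counts in the 3 JY1621 libraries, against 4.48%, 4.85% and 4.20% in the 3 JY1605 libraries. Those called lower took 2.72%, 2.58% and 2.82% in JY1621, against 9.87%, 9.59% and 9.93% in JY1605. These shares describe the calls and follow from them.

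The 100 most abundant gene models took a larger share of each of the 3 JY1621 libraries than of any JY1605 library, while for the 20 most abundant the groups overlapped, at 3.169%, 2.916% and 2.771% in JY1621 against 2.538%, 2.793% and 2.633% in JY1605. The 100 most abundant gene models of a library took 8.76% ± 0.286 of its counts in JY1621 and 7.59% ± 0.218 in JY1605 (SD, n = 3 each). The exact permutation test, two-sided, gave p = 0.1, the lowest value open to 3 against 3 libraries, and 0.129 after adjustment over 9 such measures. Gene models at 1 CPM or more numbered 41321 ± 386 in JY1621 and 41916 ± 125 in JY1605 (SD, n = 3). That exact test gave the same p = 0.1, and 0.129 adjusted, and again p = 0.1 for gene models at 5 CPM or more. At 0.5 CPM or more the groups overlapped, at 46526, 45782 and 46840 in JY1621 and 46987, 46529 and 46783 in JY1605. The exact test gave p = 0.4 for that threshold. Of the 100 most abundant gene models of each genotype, 65 were shared. Of these 65, 3 were called higher and 0 lower in JY1621, where 12.9% of all tested gene models were higher and 11.6% lower. The lists were picked by level in the libraries compared, so the lean of calls within each list follows from the choice and is not read as a result.

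Among gene models with at least 3 counts in each of the 6 libraries compared and a mean of at least 8 CPM over them that were called in dry seeds too, the largest difference in each direction was over 8 on the log2 scale. BnaC01G0380700ZS, on C01, stood at 826, 627 and 593 normalised CPM in the 3 JY1621 libraries, against 0.303, 5.46 and 0.97 in the 3 JY1605 libraries. The groups were far apart, but the JY1605 libraries spread over more than a factor of 10 among themselves. The log2 difference came to 8.31 ± 1.07 (SE; edgeR adjusted p = 1.19e-06), and to 10.01 without replicate 2 of JY1605. In dry seeds this gene model averaged 11700 ± 170 normalised CPM in JY1621 and 40.1 ± 57.9 in JY1605 (SD, n = 3), where the libraries ran from 4.66 to 107. BnaA01G0394300ZS, on A01, stood at 0.726, 0.376 and 0.6 normalised CPM in JY1621, against 193, 180 and 200 in JY1605. Every JY1621 library was thus under 1 CPM, with 11 to 14 counts, and no JY1605 library was below 180. The log2 difference came to -8.45 ± 0.308 (SE; edgeR adjusted p = 3.71e-16). Its group means in JY1605 ran from 173 to 269 normalised CPM over the 5 conditions. Both gene models were picked among those that also differed in dry seeds, so their dry-seed difference follows from the choice.

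Another 2 gene models were picked because the genotypes were close in dry seeds and apart after 8 h at 25 °C. BnaA09G0518100ZS, on A09, stood at 19.7, 28.1 and 24.5 normalised CPM in JY1621, against 1.39, 2.41 and 1.31 in JY1605. The groups did not overlap, with a log2 difference of 3.85 ± 0.173 (SE; edgeR adjusted p = 1.23e-22). In dry seeds it averaged 0.564 ± 0.119 in JY1621 and 0.471 ± 0.106 in JY1605 (SD, n = 3). These values rest on 6, 7 and 13 counts in the JY1621 libraries and 6, 5 and 6 in the JY1605 libraries. The dry log2 difference, 0.32 ± 0.45 (SE), is too loose to show that the genotypes were equal there. After 8 h at 25 °C it was above its dry level in both genotypes and further above it in JY1621. In the cold, at 8 °C, it still stood at 0.641 ± 0.131 in JY1621 and 0.349 ± 0.0361 in JY1605 after 8 h. Those 8 h values rest on 4 to 12 counts per library. At 8 °C, 36 h gave 32.5 ± 1.51 in JY1621 and 5.29 ± 0.326 in JY1605. BnaA04G0070800ZS, on A04, took the opposite course. It stood at 2.39, 2.05 and 2.7 normalised CPM in JY1621 after 8 h at 25 °C, against 22.5, 22.2 and 26.1 in JY1605, a log2 fold change of -3.33 ± 0.147 (SE; edgeR adjusted p = 5.78e-23). In dry seeds it averaged 11.6 ± 1.48 in JY1621 and 14.1 ± 2.46 in JY1605 (SD, n = 3). From dry seeds to 8 h at 25 °C it changed by -2.31 ± 0.157 (log2, SE; edgeR adjusted p = 3.94e-17) in JY1621 and by 0.75 ± 0.125 (edgeR adjusted p = 1.09e-06) in JY1605. It was thus below its dry level in JY1621 and above it in JY1605, where the change stayed under the fold minimum.

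**Figure D1:**
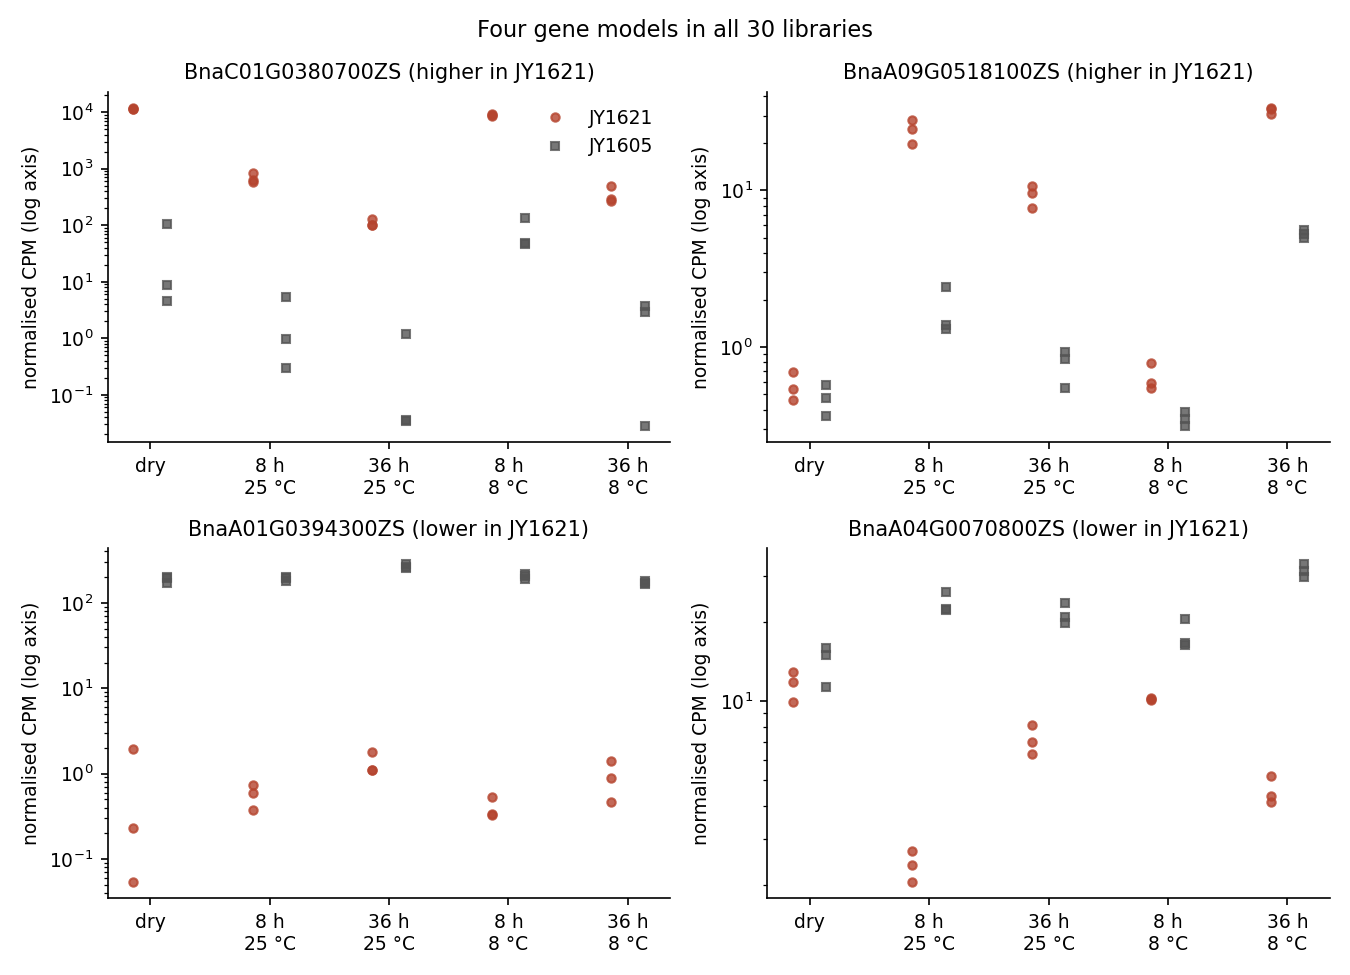
Normalised CPM (log axis) of the 4 gene models in all 30 libraries, by condition, with JY1621 as circles and JY1605 as squares, 1 point per library. After 8 h at 25 °C the genotypes do not overlap for any of the 4. BnaA09G0518100ZS and BnaA04G0070800ZS, in the right-hand panels, lie close together in dry seeds.

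The calls were spread unevenly over the chromosomes. On the A subgenome 14.5% of the 27592 tested gene models were higher in JY1621 and 11.7% lower, and on the C subgenome 9.91% of 29150 were higher and 11.8% lower. A05 stood out on the higher side, with 880 of 3226 gene models (27.3%) higher and 262 (8.12%) lower, followed by A09 with 838 of 4436 (18.9%) higher. C02 stood out on the lower side, with 716 of 2825 (25.3%) lower and 285 (10.1%) higher. A01 had 448 of 2656 (16.9%) lower, and A10 had 298 of 2024 (14.7%) lower against 144 (7.11%) higher. C05 had the fewest higher calls by share, 227 of 3346 (6.78%). In dry seeds the shares on A05 were 9.24% higher and 8.65% lower, close to the 10.8% and 9.52% over all tested gene models there. On C02 the dry-seed share of lower calls was already 20.5%.

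**Figure D2:**
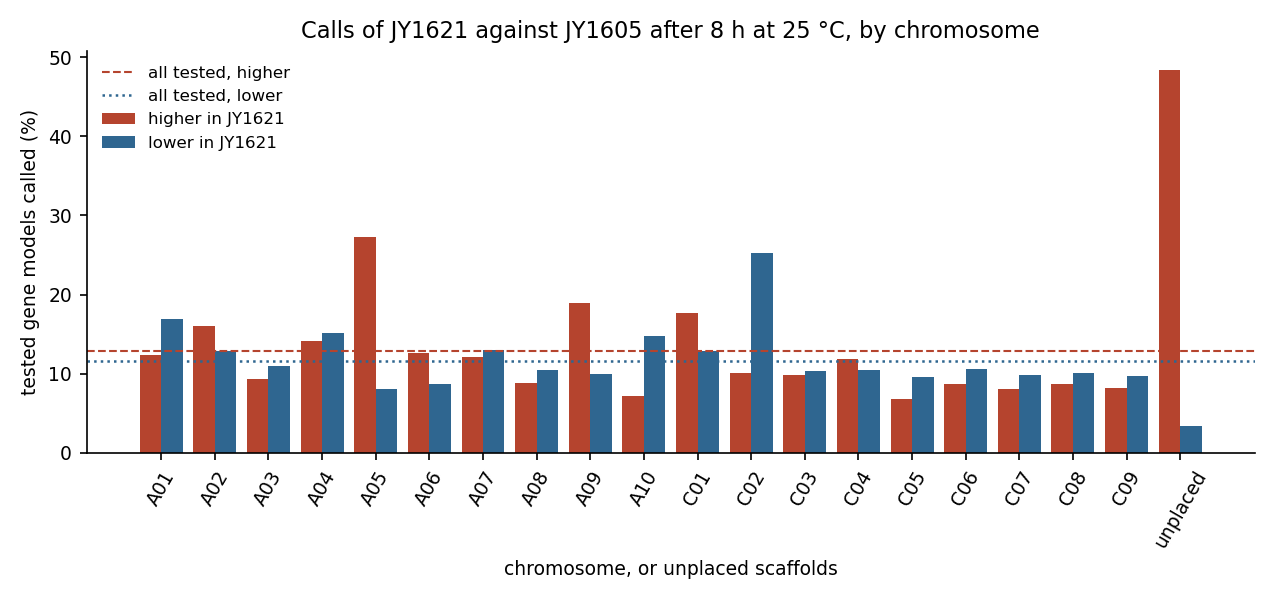
Share of the tested gene models of each chromosome called higher (red) or lower (blue) in JY1621 than in JY1605 after 8 h at 25 °C. The dashed and dotted lines mark the shares over all tested gene models, 12.9% higher and 11.6% lower. Unplaced scaffolds (48.4%) and A05 (27.3%) lie above the others in higher calls and C02 (25.3%) in lower calls.

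Neighbouring gene models often differed together. The tested gene models of each chromosome were taken in ID order in 1125 windows of 50, and a window was called one-sided where at least 60% of its members were called in the same direction. There were 35 such windows on the higher side and 17 on the lower side, which joined into 13 stretches with 2600 gene models, while the typical window held 4 higher and 5 lower calls. Outside these windows 11.3% of the gene models were higher and 10.9% lower. With unplaced scaffolds left out as well, 10.4% were higher and 11.0% lower. There, too, a gene model called higher was followed by another higher call in 24% of 5644 cases and by a lower call in 9.3%. A gene model called lower was followed by another lower call in 22.3% of 5968 cases and by a higher call in 8.51%. The windows were chosen on the 6 libraries compared, so their difference at 8 h and 25 °C is a description. Their level in the other 4 conditions rests on libraries that the choice did not use.

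Read in dry seeds, the stretches fell into 2 kinds. In 4 of them, on A01, A05, A06 and A09, the median log2 difference in dry seeds was under 1, at 0.0138 to 0.332. The highest of these was that of A06, where the summed level in dry seeds was 415.9, 344.7 and 383.6 normalised CPM in JY1621, against 308.3, 298.6 and 298.5 in JY1605, with no overlap. On A01, A05 and A09 the dry libraries of the genotypes overlapped. The other 9 were sorted together because their median difference was at least 1 in size in dry seeds as well, in the same direction. The first kind held 1500 gene models, 13.8% of all higher calls and 2 lower calls. The second kind held 250 gene models on the higher side and 850 on the lower side, the last with 10.2% of all lower calls.

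**Figure D3:**
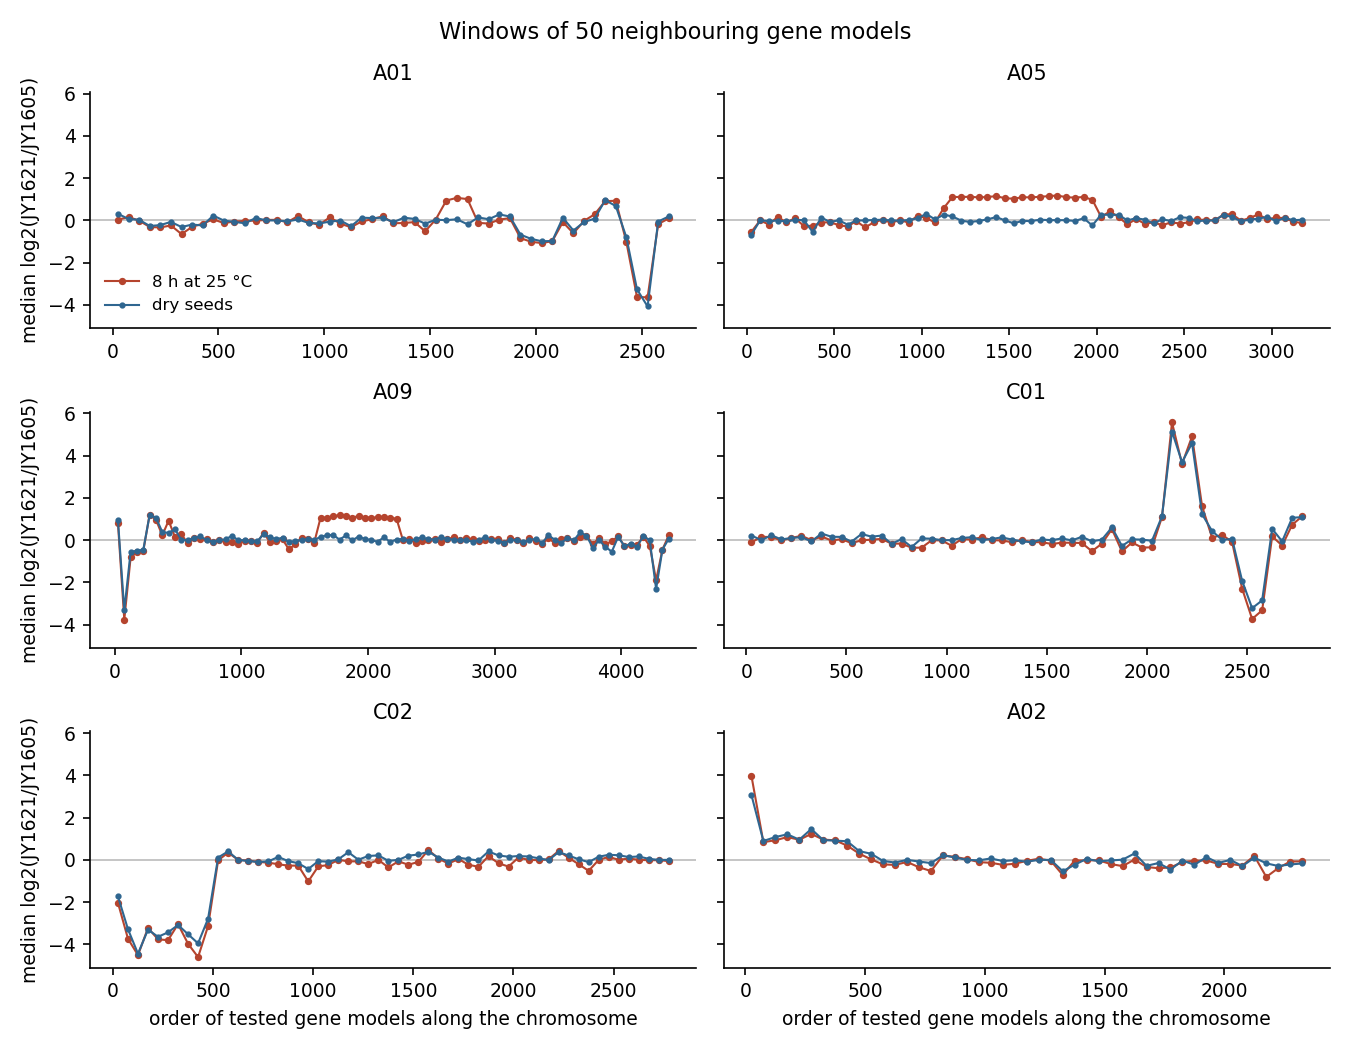
Median log2 difference, JY1621 over JY1605, of windows of 50 neighbouring tested gene models along 6 chromosomes, after 8 h at 25 °C (red) and in dry seeds (blue). In the middle of A05 and A09 and at 1 place on A01 the 8 h line runs at about 1.1 while the dry line stays near 0. At the start of C02 and A02 and near the ends of A01, C01 and A09 both lines move together.

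The longest stretch with a small dry-seed difference was the middle of A05, the 1151st to the 1950th of its 3226 tested gene models. Of these 800, 556 were higher in JY1621 and 1 was lower. Their log2 differences were alike, with a median of 1.11 and quartiles of 0.973 and 1.26, and 795 of the 800 were above 0. The summed level of the stretch was 5007, 5056 and 4722 normalised CPM in the 3 JY1621 libraries, against 2143, 2760 and 1973 in the 3 JY1605 libraries. In dry seeds the libraries of JY1621 stood at 8271, 7658 and 8174 and those of JY1605 at 7838, 7870 and 7830, so that the dry groups overlapped. Both genotypes lay below their dry level after 8 h at 25 °C, by a median log2 change of -0.727 in JY1621 and -1.67 in JY1605. In dry seeds 18 of the 800 were called higher in JY1621.

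The stretch on A09 ran from the 1651st to the 2200th of its tested gene models and had like values. Of its 550 members, 375 were higher in JY1621 and 0 were lower, with a median log2 difference of 1.1 and quartiles of 0.974 and 1.26. Its summed level was 3462, 3483 and 3269 normalised CPM in JY1621 and 1517, 1887 and 1400 in JY1605. The shorter stretches on A06, with 100 gene models, and A01, with 50, had medians of 1.17 and 1.07. Over the 4 stretches together the median difference at 25 °C was 1.11 after 8 h and 2.75 after 36 h. In the cold it was 0.00311 after 8 h and 1.08 after 36 h, and in dry seeds 0.0576. In JY1605, replicate 2 stood nearer to JY1621 than the other libraries of its group, with a summed level of 4989 normalised CPM against 3938 in replicate 1 and 3623 in replicate 3. Without replicate 2 of JY1605 the higher calls numbered 7764 over all chromosomes and the lower calls 6768.

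Gene models on unplaced scaffolds, pieces of assembly with no position on a chromosome, behaved like these stretches. Of 1203 tested, 582 (48.4%) were higher in JY1621 and 41 (3.41%) lower, with a median log2 difference of 1.02. Their summed level was 4494, 4582 and 4194 normalised CPM in JY1621, against 2231, 2652 and 2040 in JY1605. In dry seeds it averaged 6332 ± 304 in JY1621 and 6388 ± 140 in JY1605 (SD, n = 3). They lay on 304 scaffolds, and the 3 with most tested gene models had medians of 1.04, 0.944 and 0.984, so the difference was not that of a single scaffold. The 738 gene models on all other scaffolds had a median of 1.03.

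**Figure D4:**
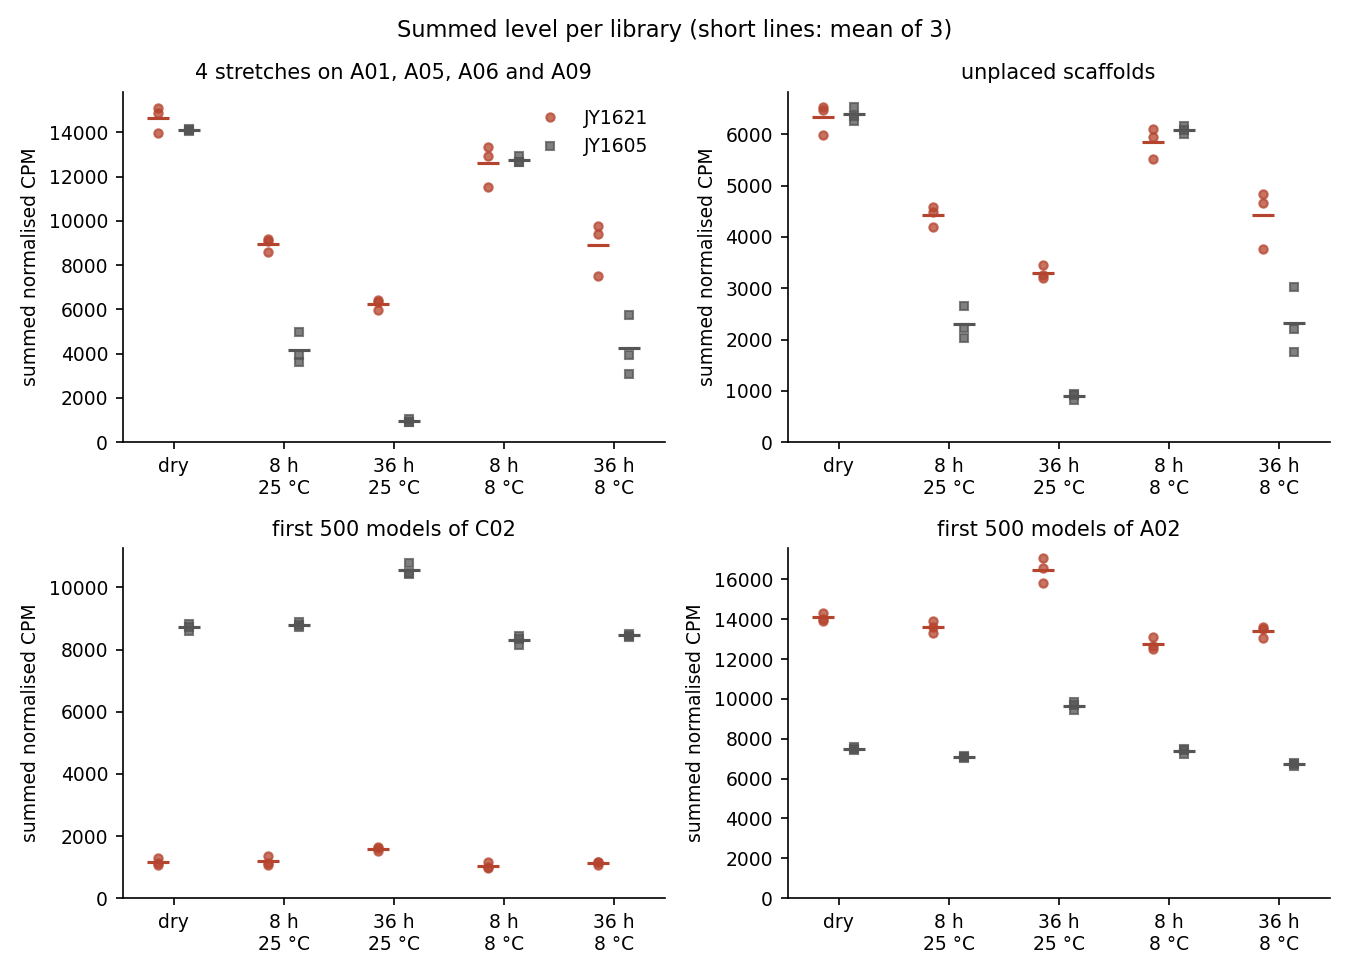
Summed normalised CPM per library (linear axes from 0) of 4 sets of gene models by condition, with JY1621 as circles, JY1605 as squares and short lines for the mean of 3 libraries. The 4 stretches with a small dry-seed difference and the unplaced scaffolds overlap between genotypes in dry seeds and in the 8 h cold samples, and are apart at 8 h and 25 °C. The first 500 gene models of C02 and of A02 are apart in every condition, in opposite directions.

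The start of C02 was the longest stretch that differed in dry seeds as well. Of its first 500 tested gene models, 420 (84.0%) were lower in JY1621 and 5 higher, with a median log2 difference of -3.63. Their summed level was 1147, 1064 and 1357 normalised CPM in the JY1621 libraries, against 8898, 8719 and 8791 in the JY1605 libraries. In dry seeds it averaged 1158 ± 118 in JY1621 and 8721 ± 115 in JY1605 (SD, n = 3), and 390 of the 500 were called lower there, where 9.52% of all tested gene models were. The first 500 tested gene models of A02, taken for comparison because A02 and C02 are homoeologous, leaned the other way. Of these, 207 (41.4%) were higher in JY1621 and 15 (3%) lower, with a median of 0.89. Their summed level was 13330, 13900 and 13610 normalised CPM in JY1621, against 7055, 7095 and 7112 in JY1605. Beyond the first 500, the median difference was -0.134 on A02 and -0.0553 on C02. Which gene models of A02 and C02 are copies of each other is not given by the IDs, and the labels do not say how reads that match both copies were counted.

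Other stretches of this kind were shorter. On C01, 132 of the 150 gene models from the 2101st to the 2250th were higher in JY1621, with a median log2 difference of 4.57, and 76 of the 100 from the 2501st to the 2600th were lower, with a median of -3.61. BnaC01G0380700ZS belongs to the first of these. The summed level of that stretch was 2900, 2690 and 2561 normalised CPM in JY1621 and 194.7, 217.7 and 222.6 in JY1605. On A01, 80 of the 100 from the 2451st to the 2550th were lower, with a median of -3.64. Their summed level was 424.6, 439.4 and 437.5 normalised CPM in JY1621 and 2120, 2117 and 2187 in JY1605. The first 50 of A02 had 31 higher calls and 7 lower ones, with a median of 3.99. A09 held 3 stretches of 50 outside its middle, with medians of -3.76, 1.21 and -1.9, and C09 held 1 with a median of -2.7. That the median difference of the 9 stretches had the same sign in dry seeds follows from how they were sorted.

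Of the gene models that differed after 8 h at 25 °C, many also differed in the other conditions, which share no library with this comparison. In dry seeds 3223 of the 7475 higher calls were higher in JY1621, 43.1% of this list and 51.5% of the dry-seed list, where 10.8% of all tested gene models were called higher. Of the 6711 lower calls, 3238 were lower in dry seeds, 48.2% of this list and 58.7% of the dry-seed list. After 8 h at 8 °C, where 12.1% of all tested gene models were higher and 8.89% lower, 3575 of the higher calls (47.8% of this list, 51% of that one) and 3372 of the lower calls (50.2% and 65.5%) were shared. After 36 h at 8 °C, where 12.1% were higher and 12.8% lower, the shared calls were 4573 (61.2% and 65%) and 4472 (66.6% and 60.5%). After 36 h at 25 °C, where 21.1% were higher and 27.0% lower, they were 5255 (70.3% and 42.9%) and 4250 (63.3% and 27.1%). Opposite calls were few, from 25 to 129 per list in dry seeds and in both cold conditions, but 539 of the higher and 325 of the lower calls were opposite after 36 h at 25 °C. All 5 conditions shared 1771 of the higher and 2033 of the lower calls, and 584 higher and 760 lower calls had the same call in none of the other 4 conditions.

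Calls that were not shared with dry seeds had smaller medians. The 4252 higher calls without that call in dry seeds had a median log2 fold change of 1.29 after 8 h at 25 °C, against 2.49 for those with it, and the 3473 lower calls without it had a median of -1.5, against -2.61. Of these 4252, 1022 lay in one-sided windows and 546 on unplaced scaffolds. Of the 3473, 90 and 16 did. Over all calls, 6237 of the 7475 higher and 6013 of the 6711 lower ones lay outside one-sided windows. On unplaced scaffolds lay 582 of the higher and 41 of the lower calls.

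Whether the genotype difference had itself changed from dry seeds was tested as an interaction. The difference after 8 h at 25 °C was higher than in dry seeds for 4164 gene models (7.19%) and lower for 4098 (7.07%), by edgeR's quasi-likelihood test with the same thresholds. With library size scaling alone the split was 3042 higher and 5558 lower, 35.4% of the calls being higher against 50.4%. The median interaction over all tested gene models was then -0.198 (log2), against -0.0476 with TMM scaling. BnaA09G0518100ZS had a difference of 3.53 ± 0.547 (log2, SE; edgeR adjusted p = 2.62e-06) and BnaA04G0070800ZS one of -3.06 ± 0.202 (edgeR adjusted p = 3.31e-15), the direction by which they were picked. The higher calls lay on A05 (615 of its tested gene models, 19.1%), A09 (489, 11.0%) and unplaced scaffolds (432, 35.9%) more than elsewhere, where 3.9% to 8.17% of a chromosome were called higher. The lower calls were spread more evenly, from 5.18% on A05 to 8.42% on C02, apart from 0.333% on unplaced scaffolds. For BnaC01G0380700ZS the interaction was 0.08 ± 1.25 (edgeR adjusted p = 1), with an error too wide to show a change. For BnaA01G0394300ZS it was -0.29 ± 0.686 (edgeR adjusted p = 0.824), but 2.04 (edgeR adjusted p = 0.0212) without replicate 2 of dry JY1621 seeds.

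Set beside each other, the changes from dry seeds give the position of each genotype relative to its own dry level. These changes share the 8 h libraries with the comparison, so they are given as values only. The gene models higher in JY1621 had a median log2 change from dry seeds of -0.199 in JY1621 and -0.504 in JY1605. Of them, 27.3% were above dry seeds in JY1621 and 18.4% below, against 22.2% and 19.4% of all tested gene models in that genotype. In JY1605, 16.8% were above dry seeds and 39.4% below, against 24.7% and 20.8% of all tested gene models. Gene models lower in JY1621 had a median change of -0.266 in JY1621 and 0.501 in JY1605. Of these, 14.4% were above and 26.6% below dry seeds in JY1621, and 34.0% above and 15.9% below in JY1605.

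The course of a gene model between dry seeds and seeds of 36 h at 25 °C was taken from libraries outside the comparison. By that measure 26.2% of all tested gene models rose and 20% fell in JY1621, and 36.6% rose and 24.8% fell in JY1605. Among the 8442 gene models that fell in both genotypes, 24% had been called higher in JY1621 at 8 h and 12.9% lower. Among the 11637 that rose in both, 11.2% were higher and 9.65% lower. The 3145 that rose in JY1621 and were not called in JY1605 were higher in 20% and lower in 9.57%, and the 9130 not called in JY1621 that rose in JY1605 were higher in 7.22% and lower in 12.9%. The 2722 that fell in JY1621 and were not called in JY1605 were higher in 16.5% and lower in 12.5%. For the 5507 that fell in JY1605 without a call in JY1621 the shares were nearly the same, 16.1% and 12.7%. Of the 435 that fell in JY1621 and rose in JY1605, 20.5% were higher and 13.3% lower. Of the 405 with the reverse course, 22.7% were higher and 11.1% lower, so both leaned to higher calls. For gene models that fell in both genotypes, the stretches and scaffolds described above held part of the higher calls. Outside one-sided windows and unplaced scaffolds, where 10.4% were higher and 11.0% lower, 13.0% of 6617 gene models that fell in both genotypes were higher and 15.5% lower. The contrast between gene models that rose in a single genotype was nearly the same there. Those that rose in JY1621 without a call in JY1605 were higher in 19.7% and lower in 7.89%. Those that rose in JY1605 without a call in JY1621 were higher in 7.1% and lower in 11.7%. Gene models that fell in JY1621 without a call in JY1605 were higher there in 15.9% and lower in 11.6%. For those that fell in JY1605 without a call in JY1621 the shares were 9.78% and 12.8%.

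**Figure D5:**
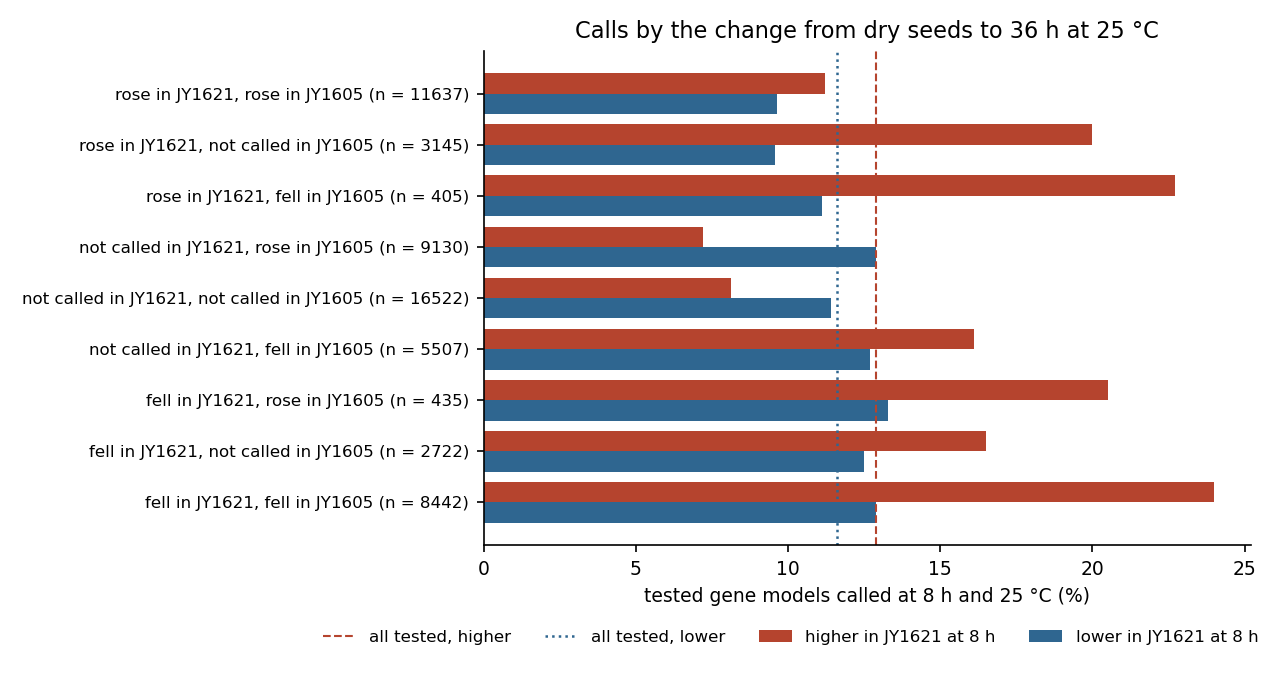
Share of gene models called higher (red) or lower (blue) in JY1621 after 8 h at 25 °C, grouped by whether they rose, fell or were not called between dry seeds and 36 h at 25 °C in each genotype. Lines mark the shares over all tested gene models. Those that fell in both genotypes reach 24% higher calls, and those not called in JY1621 that rose in JY1605 have 7.22%.

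By level, taken as the mean over the 24 other libraries, the share of calls was larger among weakly expressed gene models. Under 1 normalised CPM 14.3% were higher and 15.9% lower, from 1 to 10 CPM 15.3% and 12.8%, from 10 to 100 CPM 8.48% and 6.84%, and at 100 CPM or more 9.66% and 5.94% of 1532 gene models. Higher calls exceeded lower calls in each class from 1 CPM up and not below it. A gene model in the lowest class could pass the filter on the 3 libraries of a single compared group alone. Such gene models differ between the genotypes by the way they entered, which can raise the shares of that class. How many there were was not counted.

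A few gene models were counted in a single genotype. With at least 30 counts in each of the 3 JY1621 libraries and 0 in each of the 3 JY1605 libraries there were 91, and 68 with the reverse. The 91 had a median of 3.52 normalised CPM in JY1621, at least 79.4-fold above JY1605 in the median, taking 3 counts over the 3 libraries as the limit that a count of 0 allows. The 68 had a median of 3.35 normalised CPM in JY1605, and JY1621 was at least 79.7-fold lower in the median. In dry seeds 70 of the 91 were again at 0 in JY1605 and 46 of the 68 at 0 in JY1621. At 0 in all 15 libraries of the other genotype were 15 of the 91 and 12 of the 68. C01, C02 and C04 each held 10 of the 91, and C02 held 15, A01 9 and A09 7 of the 68. Of the 57945 tested gene models, C01 held 2816, C02 2825, C04 3290, A01 2656 and A09 4436. Whether the single-genotype gene models gather on these chromosomes was not tested. These limits cover counting error only.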

How the data were processed

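Total RNA of whole seeds was sequenced in 30 libraries of 10 groups, 3 per group. The authors deposited raw counts per gene model, whole numbers with no normalization. HISAT2 2.2.1, featureCounts 2.0.6 and DESeq2 1.42.0 are named in the submitters' processing notes. The sources used here do not give their settings, strand use, genome build or annotation.

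From these counts, CPM were computed with TMM factors ("normalised CPM"). The filter used CPM by library size, at least 10 counts in a library of median size (0.531 CPM) in 3 or more libraries, and left 57945 gene models. edgeR 4.0.16 (R 4.3.3) was fitted to all 30 libraries with 1 mean per group (quasi-likelihood, robust). Gene models were called at a Benjamini-Hochberg adjusted p under 0.05 over all tested models and a log2 fold change of 1 or more in size. Standard errors follow from each log2 fold change and F value. P-values measure the spread between these libraries, which may be technical. The code was tested on simulated data.

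The 4 named gene models were, per direction, the largest fold change among called models that averaged 8 CPM or more in the 6 compared libraries, with at least 3 counts in each of these, once among those also called in dry seeds, and once among those under 0.5 (log2) there whose interaction was called. Comparisons, sets and thresholds were chosen with earlier results of these data known. Within genotypes, libraries correlated at 0.983 to 0.986 (Pearson, log2 CPM) and differed by more than sampling noise (chi-square per degree of freedom of 3.01 to 4.56). Between genotypes the correlation was 0.891 to 0.903. Alternatives were other scalings, no low-count filter, DESeq2 1.42.0, fits of the compared groups, a replicate block, other fold minimums, leaving out chromosomes and leaving out each library.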

Additional observations from a re-analysis of the deposited data

Results flagged for a closer look

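The interaction test found genotype differences after 8 h at 25 °C that were unlike those in dry seeds. It called 4164 gene models (7.19% of those tested) in the higher direction and 4098 (7.07%) in the lower. The thresholds were a Benjamini-Hochberg adjusted p under 0.05 (edgeR) and a log2 difference of at least 1. Of the 4164, 734 lay in the 4 stretches with a small dry-seed difference and 432 on unplaced scaffolds. The 4164 had a median difference of 1.38 and a median change from dry seeds of -0.0403 in JY1621 and -1.5 in JY1605. The 4098 had a median difference of -1.58 and median changes of -0.655 in JY1621 and 1.13 in JY1605. Both lists were picked on this difference, which is the change in JY1621 less that in JY1605. The median differences and the gap between the genotypes' changes therefore follow from the choice and are given as description. Among the named gene models, the interaction was 3.53 for BnaA09G0518100ZS and -3.06 for BnaA04G0070800ZS. Both were picked from those with such a difference.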

How the results depend on the processing

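Without a minimum fold change, JY1621 had 14611 higher and 14442 lower gene models, and the interaction called 8463 higher and 8203 lower. At a log2 fold change of at least 2 the counts were 2700 and 3100, and 672 and 1319 for the interaction. The 43533 gene models outside A01, A05, A06, A09 and unplaced scaffolds held 4484 higher and 5265 lower calls in the main fit. Lower calls were thus already in excess among them. Fitted without those chromosomes and scaffolds, the counts were 4776 and 4890, and 2431 and 2894 for the interaction. DESeq2 size factors in edgeR, no low-count filter, the DESeq2 Wald test and fits of the compared groups kept every one of these 4 counts within 1.5 times. Leaving out each library gave 6590 to 7764 higher and 6287 to 6768 lower calls, and 3649 to 4412 and 3650 to 4096 for the interaction. Between 918 and 1869 calls were lost and 0 changed sign. The labels do not say whether replicate numbers pair the samples. Same-numbered libraries correlated in their deviations at 0.0287, 0.0214 and 0.0427, each highest with its own number. Pairs with unlike numbers ran from -0.0321 to 0.00308. A weak pairing is therefore not settled. With a replicate block there were 7400 and 6646 calls, and 4105 and 4028 for the interaction. With 75% of a window required, 400 gene models lay in windows on the higher side, against 1750 at 60%. Gene models counted in a single genotype numbered 229 for JY1621 and 156 for JY1605 at 10 counts, and 21 and 24 at 100 counts. For BnaA01G0394300ZS the interaction ran from -1.0 without replicate 3 of dry JY1621 seeds to 2.04 without replicate 2, and was -0.29 with all libraries. For BnaC01G0380700ZS, DESeq2 gave 8.25 (log2) with no adjusted p. The cause of these changes was not tested. A count of 0 in a single-genotype gene model is limited by the depth of the 3 libraries.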
